A study of Mus musculus with 6 samples.

Results

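The genes described here were the 38 Hox genes listed for the 4 Hox clusters of the mouse, out of 26180 genes with a curated RefSeq transcript. They were chosen by name and by position and not by their acetylation, though earlier results of these data were known. There were 10 in HoxA, 10 in HoxB, 9 in HoxC and 9 in HoxD. Each was described by the H3K27ac regions at its promoter, by the length of its gene body plus 1 kb upstream that lay inside regions, and by the regions of its cluster and 50 kb around it. H3K27ac is the acetylation of lysine 27 of histone H3, a mark of active promoters and enhancers. The mark was mapped by ChIPseq in A9 cells, a metastatic mouse line derived from the TC1 lung tumour line, after 48 h with 1% DMSO, the vehicle, with 0.00167 µmol of curcuphenol, a phenol of plants and sponges, or with IFN-γ, a cytokine. Each treatment was given to plated cells of the same line, and 130000 live cells were taken for each assay. There was 1 H3K27ac library and 1 input library per treatment, 6 libraries in all. The treatment and the library can therefore not be told apart, no test between treatments was possible, and each difference below is a difference between lists of regions with no replicate check. Where 3 values follow each other for a gene, they are in the order DMSO, curcuphenol, IFN-γ.

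Hox genes encode homeodomain transcription factors that give cells their position along the axis from head to tail. Their order along each cluster follows the order in which they are used along the body, so that genes with low numbers act towards the head and genes with high numbers towards the tail and the ends of the limbs. Tissues and the cell lines made from them often keep the Hox pattern of the place they came from, with acetylated active genes beside silent genes held by Polycomb proteins. In the embryonic lung, genes of the anterior and central part of HoxA and HoxB are active, among them Hoxa5, which is needed for normal lung and airway development. Members numbered 1 to 3 are called anterior here, 4 to 8 central and 9 to 13 posterior.

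The stretches of DNA on which the comparison of promoters turned are shown first. They are the 250 bases before the start of members whose promoter had a region in some lists and not in others (Hoxa5, Hoxb8 and Hoxd8) and of a HoxA and a HoxB member with a promoter region in every list (Hoxa2 and Hoxb4). Hoxb2 also differed between lists. The sequences are from RefSeq on GRCm38.p6, the build that mm10 names, each 5′ to 3′ on the strand of its gene. Capitals mark matches on either strand to TATAAA, the box bound by TBP, GGGCGG, the box bound by Sp factors, TTCNNNGAA, the form bound by STAT factors, TGATNNAT, the form bound by Hox and Pbx proteins together, or AGGTCA, the site that nuclear receptors bind singly or in pairs. No match overlapped another.
Hoxa2 at chr6:52164832-52165081, minus strand: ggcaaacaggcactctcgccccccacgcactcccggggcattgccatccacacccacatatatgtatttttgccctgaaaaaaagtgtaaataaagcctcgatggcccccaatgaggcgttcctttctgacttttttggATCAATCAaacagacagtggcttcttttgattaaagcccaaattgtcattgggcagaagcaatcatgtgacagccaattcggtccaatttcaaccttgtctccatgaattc
Hoxb4 at chr11:96318017-96318266, plus strand: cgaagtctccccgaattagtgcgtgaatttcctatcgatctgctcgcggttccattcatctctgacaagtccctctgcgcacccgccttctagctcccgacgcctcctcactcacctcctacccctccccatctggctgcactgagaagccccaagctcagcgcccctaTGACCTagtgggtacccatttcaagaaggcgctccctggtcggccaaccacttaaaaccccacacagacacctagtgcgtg
Hoxa5 at chr6:52204588-52204837, minus strand: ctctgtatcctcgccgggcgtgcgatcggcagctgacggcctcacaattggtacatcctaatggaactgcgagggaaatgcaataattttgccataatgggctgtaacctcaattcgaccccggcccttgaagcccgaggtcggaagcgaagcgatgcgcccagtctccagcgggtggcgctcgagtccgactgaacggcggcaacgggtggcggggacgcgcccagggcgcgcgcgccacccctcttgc
Hoxb8 at chr11:96281655-96281904, plus strand: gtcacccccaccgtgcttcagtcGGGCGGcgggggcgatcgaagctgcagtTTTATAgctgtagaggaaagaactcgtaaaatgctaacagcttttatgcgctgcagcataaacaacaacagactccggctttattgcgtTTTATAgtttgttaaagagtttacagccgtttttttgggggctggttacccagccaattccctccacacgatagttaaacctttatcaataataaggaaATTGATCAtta
Hoxd8 at chr2:74704365-74704614, plus strand, before the upstream of its 2 starts: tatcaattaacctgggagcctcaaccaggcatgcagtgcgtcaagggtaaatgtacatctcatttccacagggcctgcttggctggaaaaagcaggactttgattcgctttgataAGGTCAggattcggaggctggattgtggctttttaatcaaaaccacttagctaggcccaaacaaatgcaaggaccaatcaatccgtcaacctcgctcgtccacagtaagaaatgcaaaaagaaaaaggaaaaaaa
Hoxd8 at chr2:74705548-74705711, plus strand, coding bases of its first exon inside the DMSO region: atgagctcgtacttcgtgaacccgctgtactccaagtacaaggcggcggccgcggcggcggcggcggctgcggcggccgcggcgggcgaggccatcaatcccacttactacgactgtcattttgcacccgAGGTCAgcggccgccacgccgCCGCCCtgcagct

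All 250 bases before the Hoxa2 start lay in a region in each list. The 250 bases before Hoxb8 were wholly covered with DMSO and with IFN-γ and had 0 covered bases with curcuphenol. Those before Hoxa5 had 0, 250 and 95 covered bases in the 3 lists. The Hoxb4 stretch was covered in full with DMSO and IFN-γ and had 0 covered bases with curcuphenol, where the region began 7 bp past the start and the promoter window, which runs from 1000 bp upstream to 100 bp downstream, still counted. The stretch before the upstream Hoxd8 start had 0 covered bases in every list, and its 164 coding bases were covered with DMSO alone.

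The letters of these promoters differed among members. The 250 bases before Hoxa5 held 28 CG dinucleotides and were 63.6% G or C, against 12 and 44.4% for Hoxb8 and 6 and 46.4% for Hoxa2. Hoxb8 held 2 TATAAA matches, 1 GGGCGG match and 1 TGATNNAT match, and Hoxa2 held 1 TGATNNAT match. Hoxb4 and Hoxd8 each held 1 AGGTCA match. Over whole windows of 300 bases, with 50 bases after the start, the RefSeq table held 24 promoters of 22 of the 38 members and 32851 promoters of all genes. TGATNNAT was in 4 member promoters (16.7%) and in 8.85% of all promoters. AGGTCA was in 7 member promoters (29.2%), Hoxa5 among them through its bases after the start, and in 16.3% of all. GGGCGG was in 10 (41.7%) against 35.7%, TATAAA in 4 (16.7%) against 13.6%, and TTCNNNGAA in 1, that of Hoxd4 (4.17%), against 8.3%. A match of letters is a description and not evidence of binding.

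The DMSO, curcuphenol and IFN-γ lists held 47899, 48763 and 55622 regions, which covered 2.56%, 2.58% and 2.97% of the genome. The read depth behind the lists is not known, and the length and number of called regions vary with depth. The lung line was checked against cell type markers. Promoter regions were found with DMSO at 6 of 8 mesenchymal markers (Vim, Fn1, Cdh2, Zeb1, Zeb2 and Twist1), at 1 of 6 epithelial markers (Krt8) and at 1 of 5 lung epithelial markers (Foxj1). Epcam, Nkx2-1, Sftpc and Sftpb, which define epithelium and lung epithelium, had 0 covered bases in every list. Away from their promoters, the epithelial marker Cdh1 had 4437, 5711 and 7679 covered bp and the lung marker Scgb1a1 181, 566 and 454 bp. The 4 leukocyte and 3 endothelial markers had no promoter region in any list. Of the endothelial markers, Kdr had 0 covered bases, Cdh5 had 1812, 5668 and 3500 bp and Pecam1 had 1337, 1054 and 3627 bp. Of the leukocyte markers, Itgam had 785, 0 and 502 bp and the others, Ptprc among them, 0. With curcuphenol and IFN-γ, mesenchymal promoters with a region numbered 6 and 7, epithelial promoters 0 and 1, and lung epithelial promoters 0 and 0. Of all curated genes, 45.3%, 44.3% and 46.3% had a promoter region in the 3 lists. In covered bp, 4 of 8 mesenchymal markers were lower by at least 1.5 times with curcuphenol than with DMSO and 0 higher. Of all genes with a covered base, 21.2% were lower and 22.1% higher by that rule. The median log2 ratio was -0.39 over the 6 markers covered in both lists and -0.06 over all genes. Fn1 had 8310, 2773 and 8885 bp, Col1a1 1326, 0 and 721 bp and Acta2 1024, 0 and 2760 bp. Zeb2 alone of these markers was longer with curcuphenol than with DMSO, at 12180, 18050 and 10453 bp. Twist1 was little changed, at 3161, 2971 and 3161 bp. The median of the mesenchymal markers thus lay in the same direction as that of the Hox members below, and its part in their values was not tested.

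Acetylated Hox promoters were found mainly in HoxB, and more often at anterior and central than at posterior members. With DMSO, 11 of 38 members (28.9%) had a promoter region, where 45.3% of all curated genes had one. With curcuphenol 9 members (23.7%) had one, against 44.3% of all genes, and with IFN-γ 11 members (28.9%), against 46.3%. In each list the share was below that of all genes. HoxB held 8 of the 11, 6 of the 9 and 8 of the 11 in the 3 lists. HoxA held 2, 3 and 3, HoxD 1, 0 and 0, and HoxC 0 in each list. By position, with DMSO 3 of 7 anterior, 7 of 15 central and 1 of 16 posterior members had a promoter region, and the posterior member was Hoxb9 in every list. Position and cluster are mixed in these counts. HoxC and HoxD hold 5 posterior members each, and the 4 central HoxC members had no promoter region either. With DMSO 0 of 4 posterior members of HoxA and 1 of 2 of HoxB had one.

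The promoters of 8 members had a region in all 3 lists: Hoxa2, Hoxa4, Hoxb3, Hoxb4, Hoxb5, Hoxb6, Hoxb7 and Hoxb9. Hoxb2 and Hoxb8 had one with DMSO and IFN-γ, Hoxa5 with curcuphenol and IFN-γ, and Hoxd8 with DMSO alone. Some of these states rested on a few bases at the edge of the window. The DMSO region at Hoxa5 ended 106 bp downstream of the start, just outside the window that reaches 100 bp, and the curcuphenol region of Hoxb2 began 195 bp downstream. At Hoxb6, which starts at chr11:96299074, the curcuphenol region was chr11:96299072-96299756 and so held almost no bases before the start. The DMSO region there was chr11:96297344-96300454. At Hoxb4 the curcuphenol region began just past the start. Hoxb8 was different in kind, since with curcuphenol the nearest region began 2773 bp downstream. With a window of 2000 bp on either side, Hoxa5 and Hoxb2 had a region in all 3 lists, while Hoxb8 still lacked one with curcuphenol and Hoxd8 still had one with DMSO alone. With GENCODE starts in place of RefSeq starts, Hoxd8 had none in any list, while Hoxa7 and Hoxa9 had one in every list.

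In HoxA the regions lay over the anterior and central members and stopped inside Hoxa9. Hoxa2, which patterns the hindbrain and the second pharyngeal arch, was covered over 3415, 2415 and 3176 bp, the first being the whole of its stretch. Hoxa3, needed for thymus and parathyroid development, had 13079, 8734 and 12732 covered bp. Its long transcript also spans Hoxa4, Hoxa5 and Hoxa6, so the regions of these 3 genes were counted in Hoxa3 too. The curcuphenol values of Hoxa2 and Hoxa3 were 0.707 and 0.668 times those with DMSO.

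The central HoxA genes differed in direction between lists. Hoxa4 had 582, 514 and 689 bp, in 1 region just upstream of its start. Hoxa5 had 1905, 2469 and 2333 bp, and of the HoxA members covered in every list it had the highest ratios to DMSO, 1.30 and 1.22. Regions at the Hoxa5 start reached the end of Hoxa6 in the curcuphenol and IFN-γ lists, so that Hoxa6 had 0, 214 and 196 bp. Hoxa6 had no region of its own. Hoxa7, a central gene of the trunk, had 1342, 680 and 1075 bp inside its body.

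Hoxa9 was the only posterior HoxA gene with covered bases. This gene, active in blood progenitors and in many leukaemias, had 1163, 845 and 1229 bp, all in its body and none in its promoter window. The last covered base of the cluster was at chr6:52226443, chr6:52226199 and chr6:52226162 in the 3 lists. Past it 34437, 34681 and 34718 bp remained to the end of the cluster without a region. Hoxa10, Hoxa11 and Hoxa13, which act in the uterus, the limb and the urogenital tract, lay in that stretch and had 0 covered bases in every list.

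**Figure D1:**
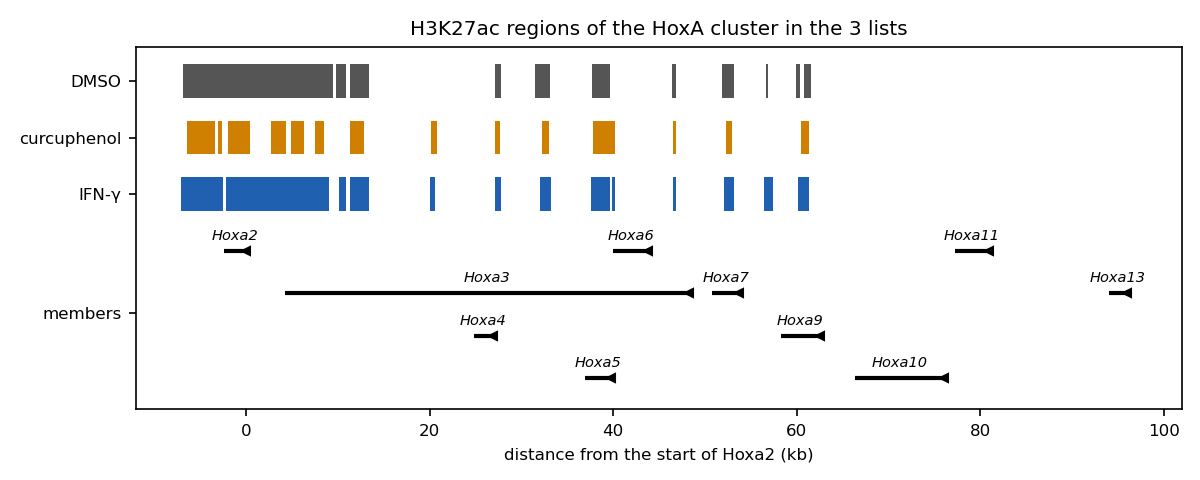
Regions of the HoxA cluster with DMSO, curcuphenol and IFN-γ (bars) above the listed members (lines, with an arrowhead at the start), against the distance in kb from the start of Hoxa2. The region of 16340 bp around Hoxa2 with DMSO appears as 6 regions with curcuphenol and 2 with IFN-γ, and no list has a region at Hoxa10, Hoxa11 or Hoxa13.

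HoxB was the cluster with the largest covered share, and its regions ran from upstream of Hoxb9 to Hoxb2. Hoxb2, which acts in the hindbrain, had 3385 covered bp with DMSO and with IFN-γ, its whole stretch, and 2190 bp with curcuphenol. Hoxb3 had 23824, 15186 and 24991 bp, the most of any member in bp. Hoxb4, a regulator of blood stem cells, had 3743, 3365 and 3699 bp, so that the lists stood close together at this gene.

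Hoxb5 and Hoxb9 did not follow the shorter coverage of their neighbours with curcuphenol. Hoxb5, active in lung and gut mesenchyme, had 928, 1189 and 1761 bp, the IFN-γ value being 1.90 times that with DMSO. Hoxb9 had 2200, 2202 and 2278 bp, ratios of 1.00 and 1.04.

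Hoxb6, Hoxb7 and Hoxb8 lie side by side, and all 3 had their lowest covered length with curcuphenol, Hoxb7 by less than 1.5 times. Hoxb6 had 2381, 685 and 2256 bp. Hoxb7 had 1928, 1479 and 2202 bp. Hoxb8, a gene of the trunk and of myeloid progenitors, had 2572, 344 and 2556 bp, the lowest curcuphenol ratio of any member covered in both lists, 0.134. The region over its promoter, chr11:96279541-96282238 with DMSO, had 2698 bp. At the same place the IFN-γ list had 2 regions and the curcuphenol list none.

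The ends of HoxB had no region at the members themselves. Hoxb1, the most anterior gene, had 0 covered bases, and the nearest region ended 10002, 10369 and 10333 bp upstream of it. Hoxb13, the most posterior gene and known from prostate and tail development, also had 0 covered bases, with the nearest region 52398, 52534 and 49511 bp upstream. Between these ends the covered part ran over 104932, 104461 and 104876 bp. Its ends thus differed by little between the lists, and the lists differed in how much was covered within it.

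**Figure D2:**
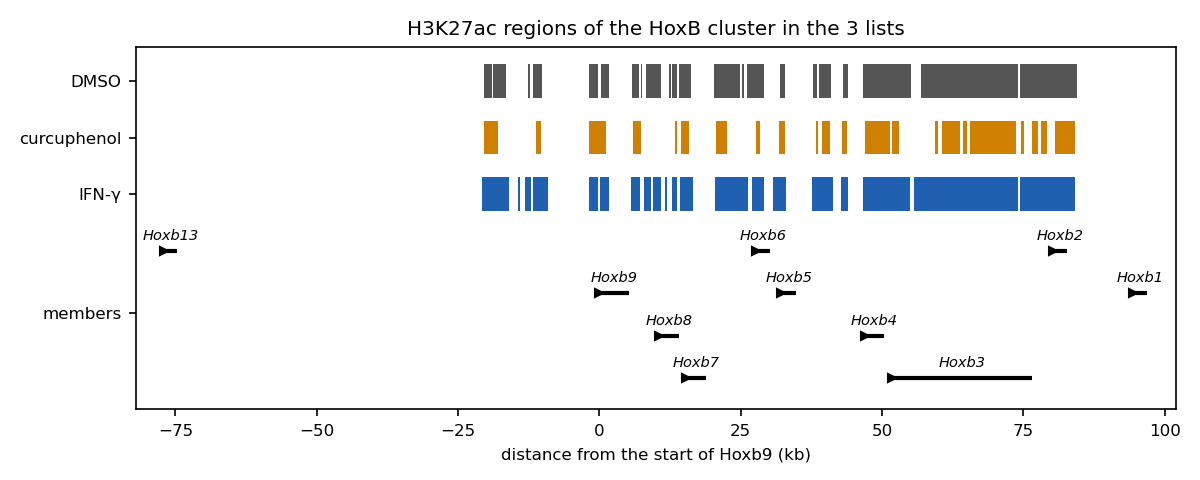
Regions of the HoxB cluster with DMSO, curcuphenol and IFN-γ (bars) above the members (lines, with an arrowhead at the start), against the distance in kb from the start of Hoxb9. The covered part spans 104932, 104461 and 104876 bp in the 3 lists, and the region at the Hoxb8 promoter is missing with curcuphenol.

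HoxC held no region at all. Its 9 members, Hoxc4, Hoxc5, Hoxc6, Hoxc8, Hoxc9, Hoxc10, Hoxc11, Hoxc12 and Hoxc13, had 0 covered bases in every list. The stretch without a region around the cluster was 438, 259 and 484 kb long. The shorter stretch with curcuphenol ended at 1 region of 3011 bp at chr15:102890473-102893483, 27648 bp upstream of Hoxc13 and in no annotated gene at its centre, which the other lists lacked. The list files hold called regions only, so 0 bases means that no region was called.

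HoxD was almost as empty, with 3 narrow regions, each in 1 list alone. Hoxd8 had 238 covered bp with DMSO and 0 with the other treatments, from the region chr2:74705474-74705711 over the start and first coding bases shown above. Hoxd3 had 448 bp with curcuphenol and 0 in the other lists, inside its body. This region overlapped the promoter window of the antisense noncoding gene Hoxd3os1. The third region, 376 bp with DMSO, lay in the noncoding gene Haglr, upstream of Hoxd1. Hoxd1, Hoxd4, Hoxd9, Hoxd10, Hoxd11, Hoxd12 and Hoxd13 had 0 covered bases in every list, and the posterior HoxD genes are known from the limb and the genital bud. With IFN-γ a stretch of 245863 bp with the cluster inside held no region.

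**Figure D3:**
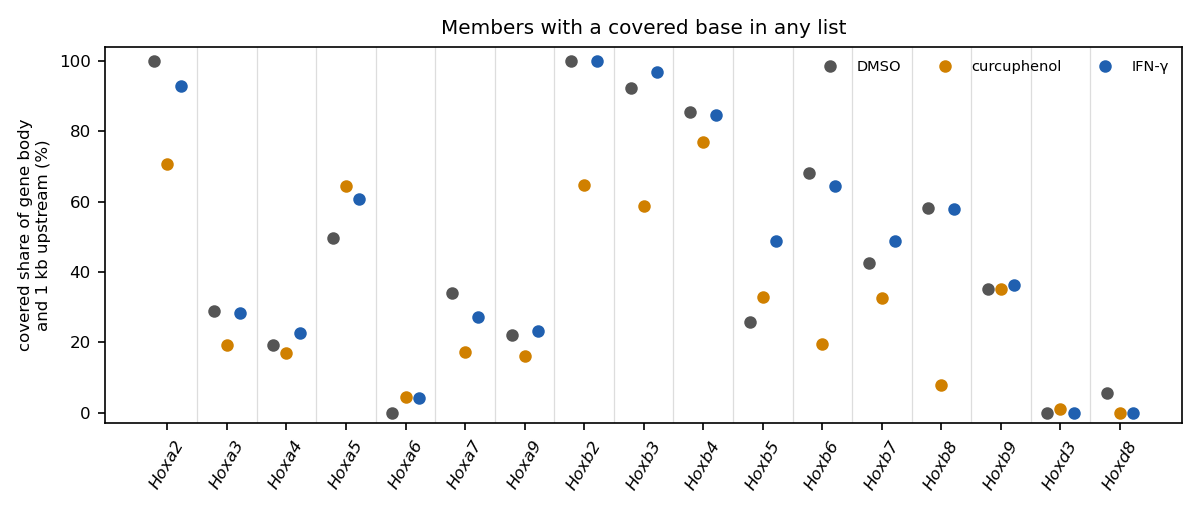
Covered share, in percent of gene body plus 1 kb upstream, of the 17 members with a covered base in any list, with 1 point per list and no replicates. The curcuphenol point lies below both others at 11 members, such as Hoxb6 and Hoxb8, and above both at 3, Hoxa5, Hoxa6 and Hoxd3, while the DMSO and IFN-γ points of Hoxb8 are at 58.2% and 57.8%.

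Over whole clusters, HoxA and HoxB were less covered with curcuphenol than with DMSO and near the DMSO value with IFN-γ. HoxA (chr6:52162417-52260880, 98464 bp) was covered over 22.8%, 14.4% and 22.7% of its length. HoxB (chr11:96194316-96368253, 173938 bp) was covered over 37.1%, 23.3% and 41.3%. The covered length with curcuphenol was 0.629 times that with DMSO in HoxA and 0.627 times in HoxB, where over the genome it was 1.01 times. With IFN-γ the ratios were 0.997 and 1.11, and 1.16 over the genome. In HoxC the covered share was 0 in every list, and in HoxD 0.634%, 0.462% and 0%. An H3K27ac region in a cell population does not tell fewer acetylated cells from less acetylation in each cell.

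**Figure D4:**
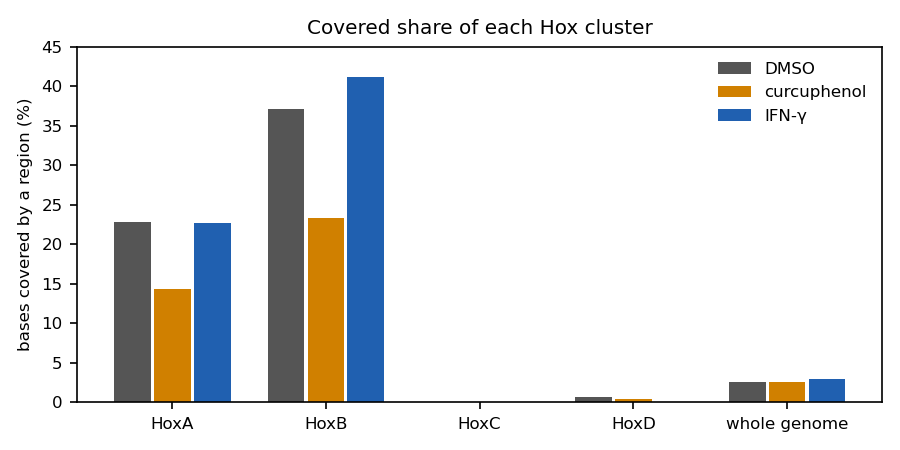
Percent of bases inside a region in each Hox cluster and in the whole genome, with 1 bar per list and no replicates. HoxA and HoxB stand above the genome in each list, with the curcuphenol bar lowest, and the HoxC bars are at 0.

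The bases covered with curcuphenol in these clusters lay mostly inside those covered with DMSO, and so did those covered with IFN-γ. Of the DMSO bases, 55.9% in HoxA and 60.2% in HoxB were also covered with curcuphenol, against 64.8% over the genome. Of the curcuphenol bases, 88.9% in HoxA and 95.9% in HoxB lay in DMSO regions, against 64.3% over the genome. Outside DMSO regions the curcuphenol list held 1574 bp in HoxA and 1645 bp in HoxB. With IFN-γ, 88.7% and 96.3% of the DMSO bases were covered, against 80.2% over the genome, and 2472 bp and 9538 bp lay outside DMSO regions. Of the IFN-γ bases, 89.0% in HoxA and 86.7% in HoxB lay in DMSO regions, against 69.0% over the genome.

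For single members, curcuphenol coverage was compared with DMSO over the 17 members with a covered base in either list. A gene counted as more or less covered when the lengths differed at least 1.5 times. Of the 17 members, 6 were less covered, Hoxa7, Hoxb2, Hoxb3, Hoxb6, Hoxb8 and Hoxd8 (35.3%), where 21.2% of 15275 genes were. More covered were 2, Hoxa6 and Hoxd3 (11.8%), both from 0 bp with DMSO, where 22.1% of all genes were. Counting any difference, 12 members (70.6%) were less and 5 (29.4%) more covered, against 52.4% and 46.1% of all genes. Over the 14 members covered in both lists the median log2 ratio of covered bp was -0.48, from -2.90 at Hoxb8 to 0.37 at Hoxa5, and over all genes -0.06. Neighbours share regions, so the members are not independent, and the count speaks for few regions. At a fold of 2 in place of 1.5, only 3 members, Hoxb6, Hoxb8 and Hoxd8, were less covered.

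With IFN-γ the members were close to DMSO. Of 16 members with a covered base in either list, Hoxb5 and Hoxa6 were more covered by the same rule (12.5%), where 21.2% of 14826 genes were. Only Hoxd8 was less covered (6.25%), where 9.31% of all genes were. Counting any difference, 8 members (50%) were more and 7 (43.8%) less covered, against 62.2% and 35.9% of all genes, and Hoxb2 was equal in both lists. The median log2 ratio over 14 members covered in both lists was 0.03, from -0.32 at Hoxa7 to 0.92 at Hoxb5, and over all genes 0.11. Both comparisons use the same DMSO library.

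**Figure D5:**
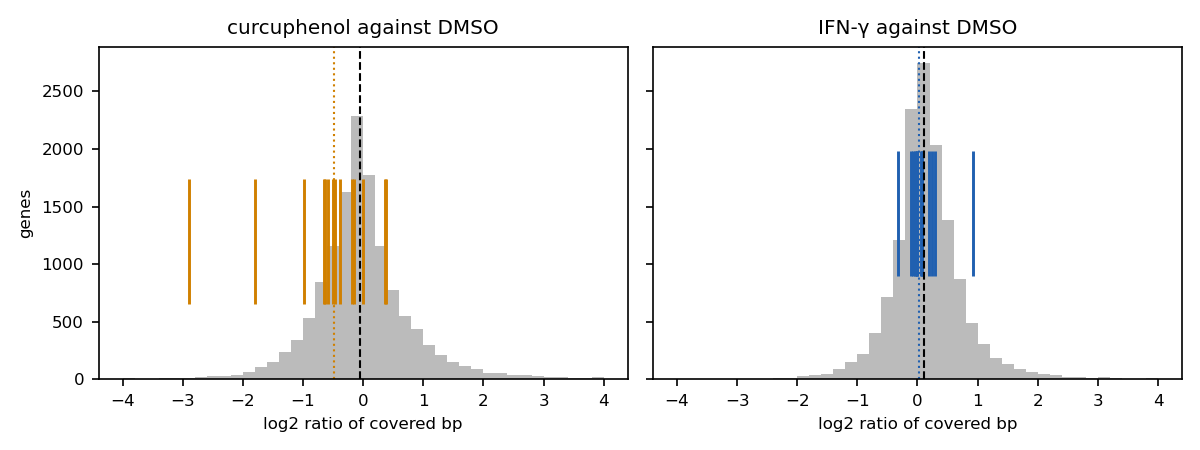
Numbers of genes by log2 ratio of covered bp, treatment to DMSO, for genes covered in both lists (grey; values past the ends of the axis are drawn in the last bin), with the members as coloured ticks, the median of all genes dashed and that of the members dotted. With curcuphenol the members' median is at -0.48 and that of all genes at -0.06, and with IFN-γ they are at 0.03 and 0.11.

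The widest regions of these clusters were broad domains that were split with curcuphenol. With DMSO 3 regions were at least 10 kb wide. The first, chr6:52157996-52174335, 16340 bp, lay over Hoxa2 and the end of Hoxa3. Another, chr11:96328233-96345442, 17210 bp, lay in Hoxb3, and the last, chr11:96345695-96355756, 10062 bp, reached from the end of Hoxb3 over Hoxb2.

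With curcuphenol these domains were found as 6, 4 and 4 regions that kept 60.2%, 73.8% and 59.8% of the bases, and with IFN-γ as 2, 1 and 1 regions that kept 95.1%, 99.7% and 96.7%. The other 164 DMSO regions of that width kept a median of 81.8% of their bases with curcuphenol (quartiles 64.6% and 91.8%) in a median of 2 regions, and 98.3% with IFN-γ. The Hox domains at Hoxa2 and Hoxb2 were thus below the lower quartile with curcuphenol, and the Hoxb3 domain between the quartiles. Narrow regions were called, which can split a broad domain where the signal dips, and whether depth had a part in the splitting was not tested.

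Regions of the 3 lists that overlapped were merged into 38 regions in the clusters and 50 kb around them. All 3 lists shared 23 of these, 8 of 11 in HoxA and 15 of 23 in HoxB. DMSO and IFN-γ without curcuphenol shared 4, 2 in each of HoxA and HoxB. Curcuphenol and IFN-γ shared 1 without DMSO, a region in the Hoxa3 body downstream of Hoxa4, and DMSO and curcuphenol shared 0 without IFN-γ. In 1 list alone were 4, 2 and 4 regions of the DMSO, curcuphenol and IFN-γ lists, and the curcuphenol region upstream of Hoxc13 was the only one of these over 1000 bp wide. No such count over the genome stands beside these, so they do not tell whether the clusters differ from the genome in this sharing.

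A minority of the noncoding genes of the clusters had promoter regions. Of 16 in the annotation, 4 had a promoter region with DMSO, Hotairm1, Hoxaas2, Hoxb3os and Halr1, all in every list, and Hoxd3os1 had one with curcuphenol alone. Hotairm1, a noncoding RNA of anterior HoxA, had 4025, 3352 and 4289 bp. Hoxb5os had 8853, 3881 and 10234 bp. Hottip and Hotair, noncoding RNAs of posterior HoxA and of HoxC that bind chromatin regulators, and Hoxa11os had 0 covered bases. Of 8 noncoding genes with a covered base, 4 were less and 1 more covered by the 1.5 rule with curcuphenol, and of 7 with IFN-γ 1 was less and 1 more covered. Of all genes 21.2% were less and 22.1% more covered with curcuphenol, and 9.31% less and 21.2% more with IFN-γ. Hoxaas2, Hoxb3os, Hoxb5os and Hoxd3os1 lie on regions that were also counted for Hox members. The counts of noncoding genes are therefore not separate from those of the members.

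Hox clusters also hold the miR-10 and miR-196 genes, whose RNAs repress Hox messages. Their mature 5p RNAs are shown because members of a family share the seed, bases 2 to 8, in capitals, while their genes lie in clusters that differed in acetylation.
miR-10a-5p, from HoxB: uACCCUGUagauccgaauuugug
miR-10b-5p, from HoxD: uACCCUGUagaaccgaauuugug
miR-196a-5p, from HoxB and HoxC: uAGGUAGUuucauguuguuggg
miR-196b-5p, from HoxA: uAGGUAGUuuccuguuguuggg

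Counted from the 5′ end, the first pair differ by U12A (miR-10a-5p first) and the second by A12C (miR-196a-5p first). None of the 5 hairpin genes had a covered base. Mir10a, between Hoxb4 and Hoxb5, lay 731, 1109 and 775 bp from the nearest region. Mir196b, near Hoxa9, lay 3722, 3966 and 4003 bp away, and Mir196a-1, near Hoxb9, 3962, 4227 and 2997 bp. In the nearly empty clusters Mir10b lay 20359, 9624 and 99407 bp and Mir196a-2 189506, 79867 and 234832 bp from a region. The 2 genes of one mature miR-196a thus had quite different surroundings.

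Genes that work with Hox proteins mostly had promoter regions. Their counts, and those of the lists that follow, are to be read against the shares of all genes: promoter regions at 45.3%, 44.3% and 46.3%, with curcuphenol 22.1% more and 21.2% less covered by 1.5 times, and with IFN-γ 21.2% more and 9.31% less. Of 11 TALE cofactors, homeodomain proteins that bind DNA with Hox proteins, 9, 8 and 9 had one in the 3 lists. Pknox2 had one with DMSO alone, Tgif2 with DMSO and IFN-γ, and Meis3 with both treatments but not with DMSO. Meis1, a cofactor of many Hox proteins, had 12341, 20118 and 10673 covered bp. By the 1.5 rule 3 were more and 3 less covered with curcuphenol, and 3 more and 0 less with IFN-γ, of 11 each. The curcuphenol counts are near the shares of all genes.

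Polycomb and trithorax regulators, which silence and keep open Hox chromatin, had promoter regions at 22, 21 and 23 of 24 genes. Ezh1, an H3K27 methyltransferase, and Bmi1, a subunit of Polycomb complex 1, lacked one with curcuphenol, and Cbx2 had one with both treatments and none with DMSO. With curcuphenol 3 of these genes were more and 7 less covered, of 23 with a covered base, and with IFN-γ 3 more and 1 less, of 24. The median log2 ratio was -0.29 with curcuphenol and -0.11 with IFN-γ, where over all genes it was -0.06 and 0.11.

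The retinoic acid pathway, whose receptors switch on anterior Hox genes, had promoter regions at 6, 3 and 5 of 14 genes. Crabp1, a binding protein for retinoic acid, had 7376, 288 and 7137 bp. Its promoter had no region with curcuphenol, like that of the receptor Rxra, and that of the synthesis enzyme Aldh1a1 had one with DMSO alone. Rarb, a receptor gene that retinoic acid itself switches on, had 24744, 8606 and 18445 bp with no region at its promoter. Aldh1a2 and Aldh1a3 went the other way with curcuphenol, with 345, 1354 and 669 bp and with 0, 817 and 0 bp. With curcuphenol 4 of 10 covered genes of the pathway were less and 2 more covered by the 1.5 rule, and with IFN-γ 1 and 2 of 9. The 2 of 10 with curcuphenol and both counts with IFN-γ are near the shares of all genes.

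Other genes of positional identity gave the same set of promoters in each list. Of 26 transcription factors outside the clusters, 10 had a promoter region, the same in all 3 lists, among them Tbx3, Tbx15, Foxf1, Foxf2, Prrx1, Prrx2, Irx3, Irx5 and En1. Foxf1, a gene of lung and gut mesenchyme, had 3821, 3638 and 4083 bp. Prrx1, a mesenchymal gene of limb and face, had the most, 35741, 27703 and 42037 bp. Prrx2 had 12777, 3103 and 11597 bp. Tbx5 and Tbx4, known from the forelimb, hindlimb and lung, had no promoter region, and the 5 ParaHox genes, among them Cdx2 and Pdx1, had 0 covered bases. With curcuphenol 5 of 15 covered factors were more and 3 less covered by the 1.5 rule, and with IFN-γ 1 and 2 of 13, and the 3 of 15 are near the share of all genes.

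The genes next to the clusters had promoter regions at 8, 8 and 7 of 12. Smug1, in the neighbourhood of HoxC, lacked one with IFN-γ, its covered length being 394, 339 and 0 bp. Evx1 and Evx2, homeobox genes at the posterior ends of HoxA and HoxD, had 0 covered bases in every list, like the posterior Hox genes beside them. Snx10, near HoxA, had 5232, 7108 and 11409 bp. With curcuphenol 1 of 10 covered neighbours was more and 3 were less covered by the 1.5 rule, and with IFN-γ 3 and 2 of 10.

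Base composition was much alike in members with and without regions. For a gene with several starts, the start with the highest share of G or C was taken. Over the 300 bases at the start, the 17 members with a covered base in any list had a median of 54.7% G or C and 14 CG dinucleotides, and the 21 members without had 58.3% and 16. The 9 HoxC members, all without a region, had 55.0% and 14, and the 10 HoxB members 53.3% and 13.5. Over all curated genes the medians were 56.0% and 12.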

How the data were processed

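H3K27ac ChIPseq was made from A9 cells with 1% DMSO, curcuphenol or IFN-γ, with 1 H3K27ac and 1 input library each. The authors aligned the reads to mm10 with BWA mem (0.7.17 in the submitters' processing notes, where the methods of the study name an earlier version) and called narrow regions with MACS2 2.1.2 in paired-end mode at an FDR cutoff of 0.01, with the input as control. The deposited lists give the positions and names of regions, with no score, height or read count. Duplicate and mapping quality filters are not given in the sources used here.

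Regions were set against the curated RefSeq transcripts of GRCm38.p6 with Python 3.11.15. A promoter region overlapped, by at least 1 bp, the window from 1000 bp upstream to 100 bp downstream of any start. Covered bp were counted over the transcripts plus 1000 bp upstream. Genes were called at a fold of 1.5, and clusters were taken with 50 kb around them. Motifs were counted in 300 bases per promoter, and only the 250 bases before the start are printed. Counting was tested on simulated regions and gave no mismatch. With 1 library per group no test was made, and counts stand beside those of all genes. The members and lists were chosen with earlier results of these data known. Every member is named, with values where any base was covered; genes of other lists are named where promoter states differed or at the ends of a range, apart from Hotairm1, Hoxb5os, Foxf1, Prrx2 and Meis1, and markers of cell types, named after their values were seen. Of the listed names, Hoxc13-as, Prac1 and Prac2 were not matched in the annotation and are not analysed here. Some genes of the other lists are counted but not reported by name. Alternatives were other windows, starts, region filters, folds and flanks.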

Additional observations from a re-analysis of the deposited data

How the results depend on the processing

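Each result was recomputed under other settings, with 86 values for 16 results, of which 74 stayed within 1.5 times and 12 did not. These counts leave out settings without a ratio. For Hoxb8, curcuphenol to DMSO, no ratio existed with regions of at least 500 bp or within 1000 bp of the start. There the curcuphenol list had no covered base. No cluster ratio called at 1.5 times changed direction, but HoxA with flanks, curcuphenol to DMSO, at a log2 ratio of -0.60, fell short of 1.5 times when regions less than 1000 bp apart were joined (-0.54) and outside the broad DMSO regions (-0.43). Where the centre of a region had to lie in the promoter, 5, 3 and 6 members had a promoter region with DMSO, curcuphenol and IFN-γ in place of 11, 9 and 11. Members less covered with curcuphenol numbered 3 at a fold of 2 in place of 6. More covered with curcuphenol was 1 member with regions of at least 500 bp and 1 within 1000 bp of the start, in place of 2. For IFN-γ, 1 member was more covered with lists of equal size, within 1000 bp of the start, and at a fold of 2, in place of 2, and 0 (regions of at least 500 bp) or 2 (within 1000 bp of the start) were less covered in place of 1. A reciprocal overlap of 50% left 12 of the DMSO regions shared by all lists in place of 23 merged regions. The log2 ratio of covered bp with flanks, curcuphenol to DMSO, ran from -0.70 to -0.43 in HoxA and from -0.78 to -0.62 in HoxB, and IFN-γ to DMSO from -0.03 to 0.12 and from 0.13 to 0.25. Added after seeing the data were GENCODE starts, which gave 12, 11 and 13 members with a promoter region, Hoxa7 and Hoxa9 among them in every list, and left out Hoxd8. Bases outside the broad DMSO regions were also added and gave -0.43 in HoxA and -0.78 in HoxB, and so were counts without Hoxa3 and Hoxb3, which stayed within 1.5 times. No paired analysis was possible because each treatment has 1 library. For the same reason no library could be left out. The unknown read depth limits each comparison of lengths.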
